A study of Homo sapiens with 6 samples.

Results

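The 10 genes described here were followed from parent MDA-MB-231 cells to the adriamycin-resistant line derived from them: 6 stem-cell markers (CD24, PROM1, SOX4, SOX9, BMI1 and NES) and 4 genes that the study had placed downstream of the membrane linker protein moesin (IGFN1, EML1, SRGN and PALM). The 10 genes were taken by symbol from the 58735 genes of the count table, and 8 of them were among the 15242 genes with enough reads to be tested. IGFN1, NES, SRGN and PALM fell in ADRr cells, no member was called higher, and SOX4 and PROM1 were too low to test.

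MDA-MB-231 is a human triple-negative breast cancer cell line, which lacks the hormone receptors and the HER2 amplification that targeted drugs need. Each group had 3 libraries of RNA: wild-type parent cells, and ADRr cells, which had been selected stepwise in rising concentrations of adriamycin (ADR, also called doxorubicin), a drug that intercalates into DNA and poisons topoisomerase, and cloned from single cells after limiting dilution. The resistant group is thus clone-derived, and the dose in its medium at harvest was not given in the sources used here. The series text mentions 3 time points that no sample label names, and nothing says that the libraries of a group came from separate cultures, so p-values measure the spread between these libraries, which may be technical.

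Cancer stem cells are the fraction of a tumor that can renew itself and seed new growth, and they are often recognized by surface proteins, by transcription factors of progenitor cells and by resistance to drugs. In breast cancer the usual surface definition is high CD44, the hyaluronan receptor, together with low CD24. Moesin ties the actin cortex to the plasma membrane, and the study followed it to STAT3, a transcription factor that cytokines of the IL-6 family activate.

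Total counts ranged from 15983985 to 18272314 per library, so that a gene listed at 0 could still have a level of 3 counts, which is 0.164 to 0.188 CPM (counts relative to their library's total; counting error only). As the hormone receptor part of the triple-negative label requires, the estrogen receptor gene ESR1 had at most 1 count in a library and the progesterone receptor gene PGR had 0. These markers do not identify the line itself. The 5 markers of mesenchymal breast cancer lines summed to 3104 to 3183 CPM in parent and 3074 to 3145 CPM in ADRr libraries. Within that sum CD44 and ZEB1 were called higher (log2 fold change 0.80 and 1.04), VIM and AXL lower (-0.56 and -0.62), and SNAI2 was not called (-0.24). Between the groups 58.8% of all tested genes were called, so a called gene is not in itself unusual in this comparison.

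The study had silenced IGFN1, EML1 and SRGN with siRNAs, and the sense strands are shown because they show which transcripts of these genes its assays aimed at. They are printed in lower case since no position is singled out.
IGFN1 siRNA: ggucagguuauagggagga
EML1 siRNA: gugcuaagcagacucuacu
SRGN siRNA: guaugauugcuguuacaua
The IGFN1 sequence matched 1 of the 6 IGFN1 transcripts in GENCODE 29, the EML1 sequence 3 of 21 and the SRGN sequence 1 of 2, each without a mismatch. None of them matched a transcript of another gene in this exact search. Partial matches were not looked for, so the search does not show that the siRNAs are specific. The gene counts described here sum over all transcripts of a gene, so they do not show which of these transcripts moved.

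Members called lower in ADRr cells numbered 4 of 8 tested, where 29.6% of all tested genes were called lower. None of the 8 was called higher, where 29.2% of all tested genes were. A call required an adjusted p no larger than 0.05 in edgeR's quasi-likelihood test with Benjamini-Hochberg adjustment over all tested genes, together with at least a 1.2-fold difference in either direction. Among the moesin-dependent genes 3 of 4 were called lower, and the median log2 fold change was -1.09. Among the stem-cell markers 1 of 4 tested was called lower, and the median was -0.07. Over all tested genes the median was -0.01.

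**Figure D1:**
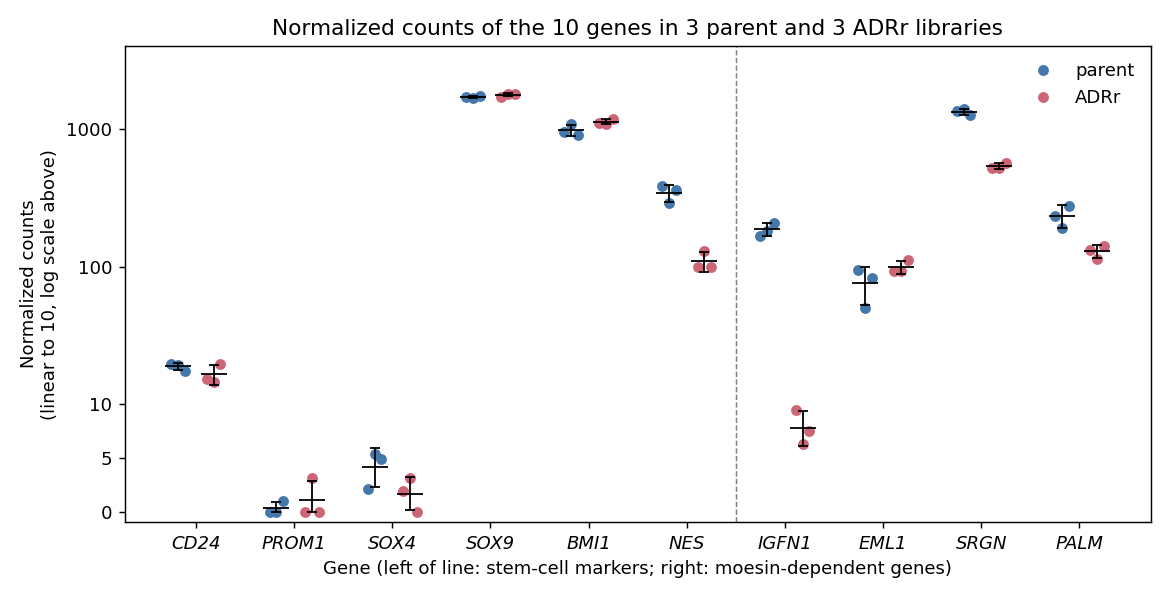
Normalized counts (vertical axis, linear up to 10 and logarithmic above) of the 10 genes in 3 parent and 3 ADRr libraries; points are libraries, horizontal bars are group means and whiskers are SD, cut off at 0. IGFN1 drops from 168 to 207 normalized counts in parent libraries to between 6.28 and 9.52 in ADRr libraries, while SOX9 stays between 1676 and 1797 in all 6.

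IGFN1 encodes a protein of immunoglobulin-like and fibronectin type III domains that was described in skeletal muscle. Its normalized counts were 168, 183 and 207 in parent replicates 1 to 3 and 9.52, 6.28 and 7.47 in ADRr replicates 1 to 3. Every ADRr library was far below every parent library, with no overlap. The raw counts behind the ADRr values were 10, 6 and 8, above the limit of 3. The gene was 23.5-fold lower in ADRr cells (log2 fold change -4.56, SE 0.24, 95% interval -5.04 to -4.07; adjusted p = 9.63e-14, edgeR's quasi-likelihood test with Benjamini-Hochberg adjustment). Of all tested genes, 0.23% (35 genes) had a log2 fold change at or below that of IGFN1. In a bulk library, fewer cells of a type and less RNA per cell cannot be told apart. IGFN1 was a gene of low level already in parent cells, with a deposited FPKM (fragments scaled to gene length and to the number of reads) of 0.877 ± 0.0921 (SD, n = 3), against 0.0367 ± 0.00779 in ADRr cells.

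SRGN encodes serglycin, the small proteoglycan core protein of secretory granules, best known from blood cells. Normalized SRGN counts were 1347, 1391 and 1266 in parent replicates 1 to 3 and 518, 522 and 568 in ADRr replicates 1 to 3. The groups did not overlap, and the spread within each was small, with a coefficient of variation of 4.75% in parent and 5.18% in ADRr libraries. SRGN was 2.49-fold lower in ADRr cells (log2 fold change -1.32, SE 0.07, 95% interval -1.46 to -1.17; adjusted p = 2.07e-13, edgeR's quasi-likelihood test with Benjamini-Hochberg adjustment). Its FPKM went from 62.5 ± 3.06 to 25.2 ± 1.36 (SD, n = 3 each). It was the member with the highest level in parent cells, above 95.9% of tested genes, and in ADRr cells it was above 87.9% of them.

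Because SRGN is a gene of blood cells, leukocyte markers were read in the same libraries. Of 10 such markers 8 stayed under 1 CPM in every library, and TYROBP, SPI1 and MS4A1 were at 0 in all of them. The summed level of the list was 53.5 to 57.6 CPM in parent and 89.8 to 95.4 CPM in ADRr libraries, made up almost wholly of LAPTM5, a lysosomal membrane protein, and CORO1A, an actin-binding coronin. Both of these were called higher in ADRr cells (log2 fold change 0.68 and 1.27), in the direction opposite to SRGN. PTPRC, the pan-leukocyte antigen CD45, had at most 2 counts in a library.

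PALM encodes paralemmin, a lipid-anchored protein on the inner face of the plasma membrane. PALM had normalized counts of 235, 189 and 278 in parent replicates 1 to 3 and 132, 114 and 141 in ADRr replicates 1 to 3. All ADRr libraries lay below all parent libraries, although the parent libraries varied by 18.9% around their mean. The gene was 1.81-fold lower (log2 fold change -0.86, SE 0.14, 95% interval -1.15 to -0.56; adjusted p = 1.58e-05, edgeR's quasi-likelihood test with Benjamini-Hochberg adjustment). With a threshold of 1.2 on the log2 scale, another reading of the study's fold change, PALM was not called.

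EML1, which encodes a microtubule-associated protein of the EMAP family, was the moesin-dependent member that was not called. Parent replicates 1 to 3 had 94.7, 49.8 and 82.8 normalized counts and ADRr replicates 1 to 3 had 93.3, 93.1 and 111. Parent replicate 2 was low, and parent replicate 1 lay inside the range of the ADRr libraries, so that the groups overlapped. The log2 fold change was 0.38 (SE 0.20, 95% interval -0.04 to 0.81; adjusted p = 0.10, edgeR's quasi-likelihood test with Benjamini-Hochberg adjustment). The parent libraries decide this value. Without parent replicate 1 it was 0.57 and EML1 was called higher, and without parent replicate 2 it was 0.16 and not called.

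NES encodes nestin, an intermediate filament protein of neural and other progenitor cells that is used as a stem-cell marker. Its normalized counts were 385, 289 and 357 in parent replicates 1 to 3 and 99.0, 130 and 99.9 in ADRr replicates 1 to 3. The lowest parent library stood well above the highest ADRr library. NES was 3.15-fold lower in ADRr cells (log2 fold change -1.66, SE 0.14, 95% interval -1.94 to -1.37; adjusted p = 3.07e-10, edgeR's quasi-likelihood test with Benjamini-Hochberg adjustment). Of all tested genes, 3.05% had a log2 fold change at or below that of NES, and 5.24% at or below that of SRGN.

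BMI1 encodes a subunit of Polycomb repressive complex 1 (PRC1), which silences genes in self-renewing cells. Its normalized counts were 946, 1079 and 903 in parent replicates 1 to 3 and 1107, 1092 and 1187 in ADRr replicates 1 to 3. The ADRr libraries were all above the parent libraries, by little in the case of parent replicate 2. With the 4 genes above, the libraries of 5 of the 8 tested members did not overlap between groups, where 69.2% of all tested genes did not (34.5% with ADRr above and 34.7% with ADRr below). The log2 fold change of BMI1 was 0.21 (SE 0.07, 95% interval 0.06 to 0.36), with an adjusted p of 0.0135 by edgeR's quasi-likelihood test with Benjamini-Hochberg adjustment. This passed the p threshold and missed the fold threshold of 1.2 (0.26 on the log2 scale), and the interval holds values on both sides of it. Single libraries decide this too. Without parent replicate 2 the value was 0.28 and BMI1 was called higher, while without parent replicate 1, parent replicate 3 or ADRr replicate 3 the adjusted p rose above its threshold, to 0.0702, 0.0542 and 0.0848 (edgeR's quasi-likelihood test with Benjamini-Hochberg adjustment).

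Part of BMI1 is counted with uncertainty. Of its 4283 exonic bases 1000 (23.3%) are also exons of the readthrough gene COMMD3-BMI1 on the same strand, which was listed at 0 in all 6 libraries and has no exonic base of its own. The FPKM of BMI1 was 13.0 ± 1.22 in parent and 15.1 ± 0.726 in ADRr cells (SD, n = 3 each). Taken over the 3283 bases that no other gene shares, these means become 17.0 and 19.7. The upstream neighbour COMMD3 had a log2 fold change of 0.09 (adjusted p = 0.607, edgeR's quasi-likelihood test with Benjamini-Hochberg adjustment).

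SOX9 encodes a transcription factor of mammary and other epithelial progenitors. Its normalized counts were 1705, 1676 and 1721 in parent replicates 1 to 3 and 1713, 1797 and 1784 in ADRr replicates 1 to 3. The groups overlapped, since ADRr replicate 1 lay below parent replicate 3. The log2 fold change was 0.05 (SE 0.06, adjusted p = 0.415, edgeR's quasi-likelihood test with Benjamini-Hochberg adjustment). Its 95% interval of -0.06 to 0.17 lies wholly inside the fold threshold of 1.2 in either direction. On the FPKM scale, which is scaled to another library total, all 3 ADRr libraries stood just above the parent libraries, with means of 24.7 ± 0.332 in parent and 25.7 ± 0.644 in ADRr cells (SD, n = 3 each).

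CD24 encodes a small glycosylated surface protein anchored by a lipid. Its raw counts were 19, 18 and 18 in parent replicates 1 to 3 and 16, 14 and 21 in ADRr replicates 1 to 3, and the groups overlapped. At so few counts the log2 fold change of -0.19 had a 95% interval of -0.93 to 0.55 (SE 0.36, adjusted p = 0.664, edgeR's quasi-likelihood test with Benjamini-Hochberg adjustment), so a change of 1.2-fold was not detectable at this depth. CD24 has processed copies elsewhere in the genome, and 5.26% of the stretches of 50 bases in its transcripts also occur in transcripts of other genes. This share covers exact matches in annotated transcripts only, so it sets no bound on how uncertain the CD24 count is.

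SOX4, a transcription factor tied to epithelial-mesenchymal transition, and PROM1, which encodes the stem-cell surface protein CD133, were near the limit of detection. SOX4 had 2, 5 and 5 raw counts in parent replicates 1 to 3 and 2, 3 and 0 in ADRr replicates 1 to 3. The ratio of the summed counts, scaled to library size, was 0.403 with a 95% counting interval of 0.111 to 1.23, which includes no change. PROM1 had 1 count over the 3 parent libraries and 3 over the 3 ADRr libraries, and no fold is given.

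**Figure D2:**
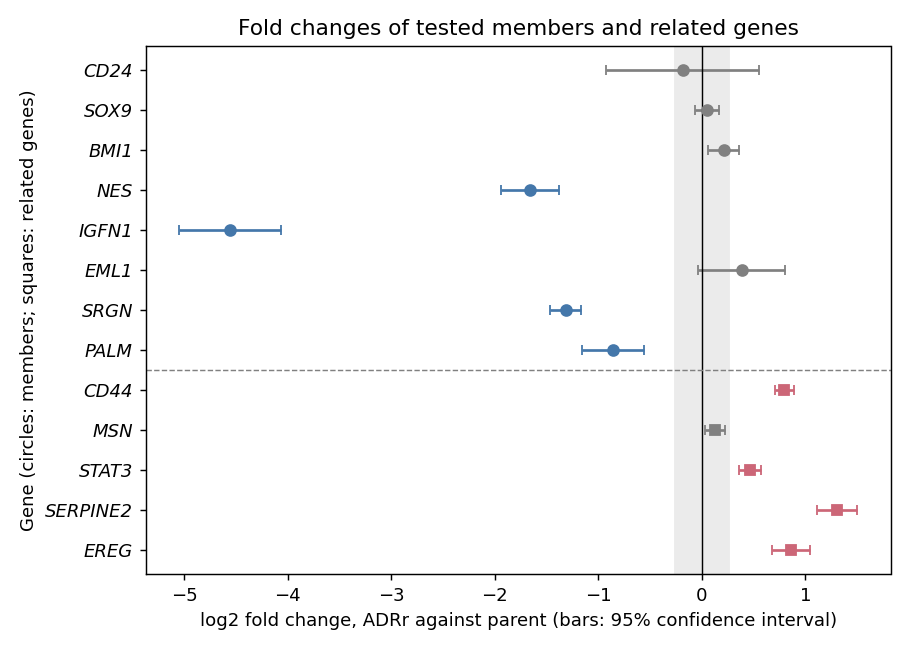
Log2 fold change of ADRr against parent cells (horizontal axis) with its 95% confidence interval for the 8 tested members (circles) and 5 related genes (squares); blue marks genes called lower, red genes called higher and grey genes not called, and the shaded band is a fold change below 1.2. IGFN1, NES, SRGN and PALM lie to the left of the band and no circle was called to the right of it, while SERPINE2, EREG, CD44 and STAT3 were called higher.

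By FPKM, the only scale here on which genes can be set beside each other, the order in parent cells was SRGN, SOX9, BMI1, NES, PALM, IGFN1, EML1, CD24, SOX4 and PROM1. NES (2.97 to 3.97) and PALM (2.20 to 3.22) overlapped across the parent libraries, and so did EML1 (0.318 to 0.608) and CD24 (0.323 to 0.362). The other neighbours in that order did not overlap. In ADRr cells SOX9 stood first, with a mean FPKM of 25.7 ± 0.644 (SD, n = 3), but it overlapped with SRGN. PALM (1.33 to 1.65) now stood above NES (1.02 to 1.34), and their ranges overlapped. IGFN1 stood below EML1 and CD24 and next above SOX4, and its lowest library (0.0296) was below the highest SOX4 library (0.0307).

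The surface definition of breast cancer stem cells sets CD44 against CD24. CD44 normalized counts were 14532, 15129 and 14270 in parent replicates 1 to 3 and 25598, 25391 and 25297 in ADRr replicates 1 to 3. The groups did not overlap, and CD44 was 1.74-fold higher (log2 fold change 0.80, SE 0.04; adjusted p = 2.22e-13, edgeR's quasi-likelihood test with Benjamini-Hochberg adjustment). The log2 ratio of CD44 to CD24 counts was 9.50, 9.57 and 9.63 in parent replicates 1 to 3 and 10.67, 10.71 and 10.30 in ADRr replicates 1 to 3. It was higher in 3 of 3 ADRr libraries, by 0.99 on average (exact permutation test, two-sided, p = 0.1, the smallest that 3 against 3 libraries allow). CD24 itself was not called (log2 fold change -0.19), so the difference in the ratio rests mainly on CD44. These are RNA ratios of whole cultures, and the share of CD44+/CD24- cells was not measured by them.

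The genes around moesin moved in both directions. MSN itself had normalized counts of 11080, 11680 and 10783 in parent and 11999, 12021 and 12694 in ADRr replicates 1 to 3. Its log2 fold change of 0.13 (adjusted p = 0.0184, edgeR's quasi-likelihood test with Benjamini-Hochberg adjustment) missed the fold threshold. By Western blot the study reported more moesin protein in ADRr cells than in its other drug-resistant lines. It also reported more phosphorylated moesin, CDC42 and PAK4 than in parent cells, particularly after IL-6 treatment. RNA counts measure neither protein nor phosphorylation. STAT3 rose by 0.46 on the log2 scale (SE 0.05). Of the 10 genes of the moesin and STAT3 axis list, 4 were called higher and 4 lower, with a median log2 fold change of 0.30. SERPINE2 and EREG, described in the next paragraph, belong to this list and are among the 4 called higher. The increases were led by the cytokine IL6 (1.97, SE 0.05) and the decreases by the kinase PAK4 (-1.03, SE 0.08). CDC42, named later for its low counts, was not called but enters the median. It had 3 to 10 raw counts in parent and 11 to 17 in ADRr libraries. Of its exonic bases 57.1% are shared with another gene on the same strand, so its count is uncertain.

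SERPINE2 and EREG had been selected by the study beside the 4 moesin-dependent members. SERPINE2, a secreted protease inhibitor, had normalized counts of 234, 294 and 263 in parent replicates 1 to 3, and 649, 651 and 651 in ADRr replicates 1 to 3. EREG, the EGF receptor ligand epiregulin, had 415, 432 and 373 in parent and 682, 729 and 800 in ADRr replicates 1 to 3. Neither gene overlapped between groups, and both were called higher (log2 fold change 1.30, SE 0.09, and 0.86, SE 0.09). Of these 6 genes picked together, 3 were thus called lower, 2 higher and 1 was not called. Among all tested genes 29.6% were called lower and 29.2% higher. After further assays the study kept only IGFN1, EML1 and SRGN.

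Other surface and enzyme markers of breast stem cells were split. Of 24 such genes 16 were tested, of which 8 were called higher and 5 lower, with a median log2 fold change of 0.34. The nerve growth factor receptor gene NGFR showed the largest increase, from 41 to 56 raw counts in parent libraries to between 1080 and 1237 in ADRr libraries (log2 fold change 4.50, SE 0.11). The chemokine receptor gene CXCR4 showed the largest decrease. It had 22 to 23 counts in parent and 0 to 2 in ADRr libraries, and was at least 7.42-fold lower when the ADRr libraries are set at 3 counts each. Of 28 stemness and mammary lineage transcription factors 17 were tested, with 8 called higher, led by KLF4 (2.56, SE 0.06), and 3 lower. The 3 lower genes, named after their values were seen, were ID1, ID2 and ID3 (-4.49, -2.91 and -3.90), inhibitors of basic helix-loop-helix factors.

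Relatives and partners of the stem-cell markers differed from gene to gene. Of the 17 other SOX genes 5 were tested, and SOX13 was called higher (0.80) and SOX18 lower (-2.69), with a median log2 fold change of 0.15. All 20 PRC1 subunits were tested beside BMI1, with 7 called higher, 3 lower and a median log2 fold change of 0.04. The chromodomain subunits CBX8 (1.15) and CBX7 (-0.69) marked the ends of that list. A list of 13 intermediate filament and linker genes was drawn up for nestin, and it includes the nuclear lamins LMNA, LMNB1 and LMNB2. The lamins lie in the nucleus and are not partners of nestin. Of the 13 genes 7 were tested, 6 were called lower and 1 higher, and the median was -0.85. LMNB1, which encodes lamin B1 of the nuclear lamina, fell most (-2.03, SE 0.06), and GFAP, the astrocyte filament gene, was the one called higher (1.16, SE 0.19). VIM, SYNM, PLEC, LMNA and LMNB2, named after their values were seen, had log2 fold changes of -0.56, -1.23, -0.85, -0.65 and -1.16.

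Relatives of the moesin-dependent genes were likewise read as groups. Of 38 proteoglycan core proteins and enzymes of chondroitin sulfate synthesis, the family and sugar chain of serglycin, 24 were tested, with 13 called lower, 6 higher and a median of -0.35. The chain-starting enzymes CSGALNACT1 (-2.26, SE 0.11) and CSGALNACT2 (1.26, SE 0.07) stood at opposite ends of that list. Of the paralogs of EML1, PALM and PROM1, 7 of 10 were tested, and 2 were called higher and 3 lower, with a median of 0.09. EML5 fell most (-1.95), and PALM2 was called higher (0.68) where PALM was lower. Of 15 muscle genes with immunoglobulin and fibronectin type III domains like those of IGFN1, 7 were tested, and MYPN (1.03) led the 2 called higher and PALLD (-1.37) the 3 called lower (median -0.22). These lists are described by counts and medians alone, beside 29.2% higher and 29.6% lower among all tested genes.

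Epithelial markers moved in the same libraries as these genes. Of 10 luminal breast markers 7 were tested, with 4 called lower and 1 higher. Their summed level was 1002 to 1126 CPM in parent and 430 to 462 CPM in ADRr libraries, in which the keratin gene KRT8 fell most, from 9209 to 11629 raw counts to between 2522 and 2965, and EPCAM (1.10) was the one called higher. Of the 4 basal markers only TP63 was tested (2.09), from 3 to 8 counts in parent to between 21 and 28 in ADRr libraries, and KRT5 and KRT6A were at 0 throughout. The 4 endothelial markers stayed under 1 CPM in every library, with a sum of 0.504 to 1.07 CPM in parent and 0.393 to 1.11 CPM in ADRr libraries. The part of these shifts in the members' values was not tested.

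To see whether the members moved with their surroundings on the chromosome, each was set beside the 25 nearest tested genes on either side. The medians of the neighbours ranged from 0.06 around CD24 to 0.18 around NES and SRGN (log2 fold change). With 10 genes on either side they were -0.05 around CD24, -0.08 around SRGN and 0.38 around SOX9, and the other medians lay between 0.04 and 0.24. IGFN1 and NES, both on chromosome 1, were lower than all 50 of their neighbours. SRGN on chromosome 10 had 3 of 50 neighbours below it, and PALM near the end of chromosome 19 had 1 of 42. The genes directly beside IGFN1 were TMEM9 (-0.90) and PHLDA3 (0.37), and those beside PALM were FSTL3 (0.70) and MISP (1.77). For CD24, BMI1, EML1 and SOX9, at least 12 of 50 neighbours lay on either side of the member. BMI1 was above its neighbours' median of 0.07 with 25 genes on either side, and below their median of 0.24 with 10.

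**Figure D3:**
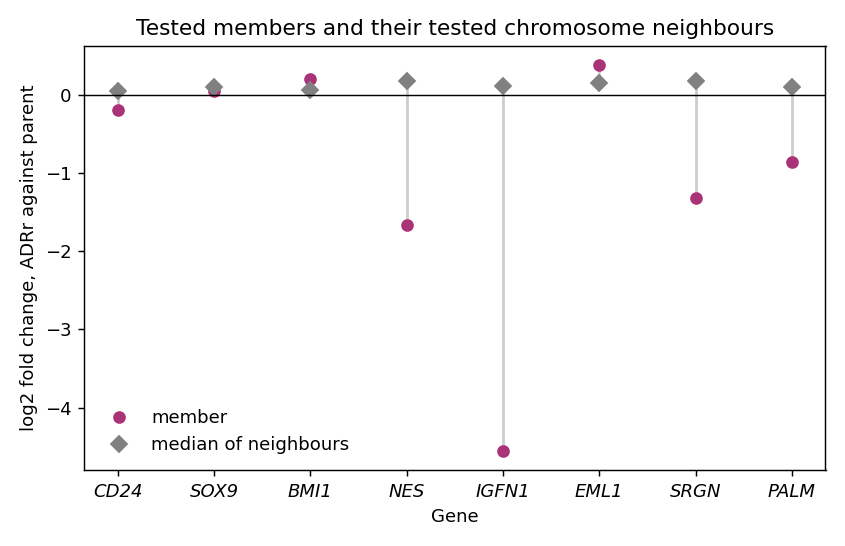
Log2 fold change of ADRr against parent cells (vertical axis) for each tested member (circle) and the median of its nearest tested neighbours on the chromosome (diamond), 25 on either side where the chromosome allows. The diamonds all lie between 0.06 and 0.18, while IGFN1 lies at -4.56, NES at -1.66, SRGN at -1.32 and PALM at -0.86.

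The promoters of IGFN1 and NES are shown because these members had the largest decreases. The sequences are the 250 bases upstream of the RefSeq start on GRCh38.p14, written 5′ to 3′ on the strand of the gene. Capitals mark GC boxes (GGGCGG on either strand).
IGFN1, chr1:201190574-201190823, plus strand: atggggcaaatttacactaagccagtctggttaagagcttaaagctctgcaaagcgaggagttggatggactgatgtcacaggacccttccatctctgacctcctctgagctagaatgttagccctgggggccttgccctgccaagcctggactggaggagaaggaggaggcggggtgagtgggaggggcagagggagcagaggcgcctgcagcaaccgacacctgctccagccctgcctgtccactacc
NES, chr1:156677408-156677657, minus strand: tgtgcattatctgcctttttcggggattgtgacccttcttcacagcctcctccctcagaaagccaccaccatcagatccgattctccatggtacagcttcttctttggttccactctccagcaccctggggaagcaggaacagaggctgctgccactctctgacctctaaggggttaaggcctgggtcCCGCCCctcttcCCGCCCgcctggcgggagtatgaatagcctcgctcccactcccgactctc
The NES window held 2 GC boxes and the IGFN1 window none, where 63% of the promoters of tested genes held at least 1. The letters of the STAT motif TTCNNNGAA, read on both strands, were in neither window, nor in those of BMI1, CD24, EML1, PROM1 and SOX4. They occurred in 5.5% of the promoters of tested genes, in 5.67% of those of genes called lower and in 5.39% of those of genes called higher. The windows of BMI1, CD24, EML1, PROM1 and SOX4 lie inside the GENCODE 29 spans of these genes, so other starts lie further upstream. All 250 bases of the SOX4 window and 75 bases of the EML1 window are exonic. A window without the STAT letters says nothing about binding elsewhere or to other letters. The study tested STAT3 binding by chromatin immunoprecipitation at IGFN1, EML1, SRGN, PALM, SERPINE2 and EREG. It placed the regions at IGFN1, EML1, PALM and SERPINE2 further upstream than 250 bases. Its regions at SRGN and EREG reached into the 250 bases upstream, but no SRGN window was available here. It proposed that IGFN1, EML1, SRGN and EREG are activated by phosphorylated STAT3 together with moesin. PALM and SERPINE2 were not among them.

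The promoter windows of the members also differed in base composition. The IGFN1 window had 4 CG dinucleotides and a GC content of 58.8%, and the NES window had 8 and 58%. The BMI1 window had 54 CG dinucleotides and a GC content of 91.6%, the EML1 window 43 and 85.2%, and the CD24 window 17 and 64%. The windows of PROM1 (5 and 56.8%) and SOX4 (8 and 48.8%), which were too low to test, were also poor in CG dinucleotides. Low CG content was thus not particular to the members called lower. Except for those of IGFN1 and NES, these windows lie inside the GENCODE 29 span of their gene. Over 15183 tested genes the median was 20 CG dinucleotides (10th to 90th percentile 4 to 34) and a GC content of 64.4% (47.2 to 77.2%). The promoter table gave no entry for SRGN, PALM and SOX9.

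On GRCh38, the members lie as follows. IGFN1 (ENSG00000163395) spans chr1:201190825-201228952 on the plus strand, and NES (ENSG00000132688) chr1:156668763-156677397 on the minus strand. SRGN (ENSG00000122862) spans chr10:69088106-69104811, BMI1 (ENSG00000168283) chr10:22321211-22331484, EML1 (ENSG00000066629) chr14:99737693-99942060, PALM (ENSG00000099864) chr19:708939-748329, SOX9 (ENSG00000125398) chr17:72121020-72126420 and SOX4 (ENSG00000124766) chr6:21592768-21598619, all on the plus strand. CD24 (ENSG00000272398) spans chr6:106969831-106975627 and PROM1 (ENSG00000007062) chr4:15963076-16084378, both on the minus strand. The exons of NES, SRGN, PALM, EML1, SOX9 and CD24 share no base with exons of other genes. Those of IGFN1 share 0.735%, with an antisense gene, of SOX4 2.87% and of PROM1 2.23%.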

How the data were processed

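RNA from 3 parent and 3 ADRr libraries of MDA-MB-231 cells was analysed. The authors deposited raw counts of each gene as whole numbers, and FPKM values made from them. The study's methods name the CORALL library kit, polyadenylated RNA and paired-end reads from an Illumina NovaSeq; the sample records describe another kit. The submitters' processing notes name fastp, HISAT2 2.0.5, featureCounts 1.5.0-p3, DESeq2 1.20.0 and GRCh38. Whether counting used strand is not given in the sources used here. Gene identifiers and lengths were those of GENCODE 29.

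Groups were taken from the sample labels. Genes kept by filterByExpr (15242 of 58735) were normalized by TMM and compared in R 4.3.3 with edgeR 4.0.16, by the quasi-likelihood test with Benjamini-Hochberg adjustment over all of them and no block. The thresholds for a call were 0.05 for the adjusted p and 1.2 for the fold change. Normalized counts are scaled to the mean effective library size. The CD44 to CD24 ratio used a prior of 0.5 counts and an exact permutation test. The edgeR test was checked on simulated data in which a smaller share of genes changed than was called here. That check does not measure the error rate in the present data. Total counts were 15983985 to 18272314, and intervals from counts cover counting error only.

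The alternatives were DESeq2 1.42.0, its size factors or library size alone, no filter, a minimum of 10 counts in each library, limma 3.58.1 (limma-trend) on log2(FPKM + 1) or log2(FPKM + 0.1) at a mean FPKM of at least 0.5, the former also without a filter, the replicate number as a block, each library left out, glmTreat, calls by the adjusted p without a fold threshold or with one of 1.2 on the log2 scale, FPKM or a prior of 2 for the ratio, and 10 neighbours on either side.

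The members and the lists were chosen with earlier results of these data known. Genes named were the 10 members, CD44, MSN, STAT3, SERPINE2, EREG, COMMD3-BMI1, and the strongest called increase and decrease of each list; markers and genes said to be named later are additions. Gene lists were written by hand. Promoter sequences are from RefSeq (GRCh38.p14), with entries for 7 of the 10 members. The siRNA sequences are the study's. The study's moesin knockdown experiments were not analysed here.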

Additional observations from a re-analysis of the deposited data

How the results depend on the processing

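Across 18 alternatives the 8 tested members kept their direction wherever they could be tested, and IGFN1, NES and SRGN were called lower in each of those tests. Log2 fold changes ranged from -4.72 to -0.86 for IGFN1, from -1.79 to -1.09 for NES, from -1.36 to -1.28 for SRGN, from -0.99 to -0.56 for PALM, from 0.14 to 0.57 for EML1, from 0.16 to 0.28 for BMI1, from 0.04 to 0.08 for SOX9 and from -0.33 to -0.05 for CD24. The values nearest 0 for IGFN1, NES and PALM came from log2(FPKM + 1), where the added 1 shrinks the change of low genes by construction. At least 10 counts in every library or a mean FPKM of at least 0.5 removed IGFN1 from the test, so that 3 members were called lower there.

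The call of BMI1 turned on both thresholds and that of PALM on the fold threshold. With the adjusted p alone BMI1 was called higher at 0.21, and members called higher numbered 1. At an absolute log2 fold change of 1.2, PALM was not called at -0.86, and 1114 genes were called higher and 972 lower. Several other named genes also lost their call there, among them CD44 (0.80), EREG (0.86) and STAT3 (0.46), while SERPINE2 (1.30) kept it. Leaving out single libraries gave 0 to 1 members called higher, with BMI1 from 0.16 to 0.28 (called without parent replicate 2; adjusted p above 0.05 without parent replicate 1, parent replicate 3 or ADRr replicate 3, at up to 0.0848 by edgeR) and EML1 from 0.16 to 0.57 (called without parent replicate 1). The adjusted p of BMI1 was also above 0.05 with limma-trend on log2(FPKM + 1) without a filter (0.0844, limma). Without a filter, SOX4 had a log2 fold change of -1.26 (adjusted p = 0.413, edgeR) and PROM1 of 1.28 (adjusted p = 0.628, edgeR). The difference in the log2 ratio of CD44 to CD24 ranged from 0.92 to 1.12. The exact permutation p was 0.1 throughout, the smallest possible with these numbers of libraries, so its constancy says nothing about robustness. Of 324 recounts of the related lists, 290 stayed within 1.5 times the count given.

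The replicate numbers were shared by both groups, but same-numbered libraries did not deviate together (correlations of 0.0074, -0.021 and -0.046), so they were not taken as pairs. With the replicate number as a block, the log2 fold changes were -4.55 for IGFN1, -1.65 for NES, -1.32 for SRGN, -0.85 for PALM, 0.41 for EML1 and 0.21 for BMI1, with 0 members called higher and 4 lower, and 4406 genes called higher. Low counts limit CD24, SOX4, PROM1 and, in ADRr libraries, IGFN1, at 0 to 21 counts per library.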
